A study of Caenorhabditis elegans with 2 samples.

Results

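The genes described here encode the proteins of the mitochondrial ribosome of Caenorhabditis elegans. They were taken from the Ensembl annotation of the worm genome (WBcel235) as every protein-coding gene whose symbol is mrpl or mrps followed by a number. The rule found 66 of 19973 protein-coding genes. It used names only and no measured value. Of the 66, 41 encode proteins of the large subunit (mrpl) and 25 encode proteins of the small subunit (mrps).

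The measurement was chromatin immunoprecipitation and sequencing (ChIP-seq) with an antibody to AMA-1, the largest polypeptide of RNA polymerase II, which transcribes protein-coding genes. The material was whole young adult animals of N2, the laboratory wild type, with the sex given as pooled males and females. No treatment or mutation is given in the labels, and the labels number 2 biological replicates of 1 group without saying how the cultures were grown. With 1 group there was no contrast between conditions, so members were described against all protein-coding genes and no test was made.

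The mitochondrial ribosome translates the few proteins that the mitochondrial genome encodes, which are core parts of the oxidative phosphorylation complexes. Its RNA comes from the mitochondrial genome, but its proteins are encoded in the nucleus, transcribed by RNA polymerase II, translated in the cytosol and imported. Many worm genes lie in operons, runs of genes on 1 strand that are transcribed together and cut into separate messages by trans-splicing, with a spliced leader joined at an acceptor site just ahead of each downstream gene. In whole animals, binding in fewer cells and weaker binding in each cell cannot be told apart.

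The authors deposited peak lists, not read counts, so the depth of each sample is unknown. The final list of reproducible peaks (the optimal list) held 1103 peaks on genome build ce11. These were the 1103 strongest peaks of the pooled list, which held 30000 peaks. The list of replicate 1 held 27847 peaks and that of replicate 2 held 30000. The pooled and replicate lists are relaxed and reach low confidence, with −log10 (q-value) going down to 0.639, 0.55 and 0.706, so a summit far down a list may lie in background. Strength means the peak caller's signal value, which is the authors' own and served here to order the peaks inside each list, with rank 1 the strongest. A gene was credited with a summit that fell between its annotated 3' end and a point 500 bp ahead of its annotated 5' end.

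Most genes of the mitochondrial ribosome held a polymerase summit, but few held a strong one. A pooled summit was found at 56 of 66 members (84.8%, 95% Wilson interval 74.3 to 91.6), against 37.3% of all protein-coding genes. In replicate 1 the count was 59 of 66 (89.4%, against 43.3% of all genes). In replicate 2 it was 51 of 66 (77.3%, against 35.6%). With replicate 2 taken to the length of replicate 1, 48 members had a summit in both replicates (72.7%, interval 61.0 to 82.0), against 28.4% of all genes. At that length 4 members had a summit in neither (6.06%, against 50.4%). The intervals cover the counting of genes only.

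At the strong end of the lists both shares were small and lay closer in percentage points. At some list lengths the members' share was not above that of all genes. The optimal list had a summit at 5 of 66 members (7.58%, interval 3.28 to 16.5), against 3.18% of all genes, with the lower bound of the interval close to that background. Among the 551 strongest pooled peaks no member had a summit, against 1.65% of all genes. Among the 2206 strongest there were 9 members (13.6%, against 6.25%), among the 5000 strongest 20 (30.3%, against 12.6%), and among the 10000 strongest 33 (50.0%, against 21.6%). In replicate 1 there was 1 member among the 551 strongest peaks (1.52%, against 1.62% of all genes) and 4 among 2206 (6.06%, against 6.35%). There were 13 among 5000 (19.7%, against 13.0%), 33 among 10000 (50.0%, against 23.3%) and 48 among 20000 (72.7%, against 36.4%). In replicate 2 the numbers at these lengths were 1 (1.52%, against 1.64%), 9 (13.6%, against 6.09%), 18 (27.3%, against 12.3%), 26 (39.4%, against 20.3%) and 47 (71.2%, against 30.2%). The shares at 551 peaks in both replicates and at 2206 peaks in replicate 1 were not above background. The best rank of a member was 781 in the pooled list, 272 in replicate 1 and 454 in replicate 2. Over the genes that had a pooled summit, the median rank was 7279 for members and 8164.5 for all genes.

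**Figure D1:**
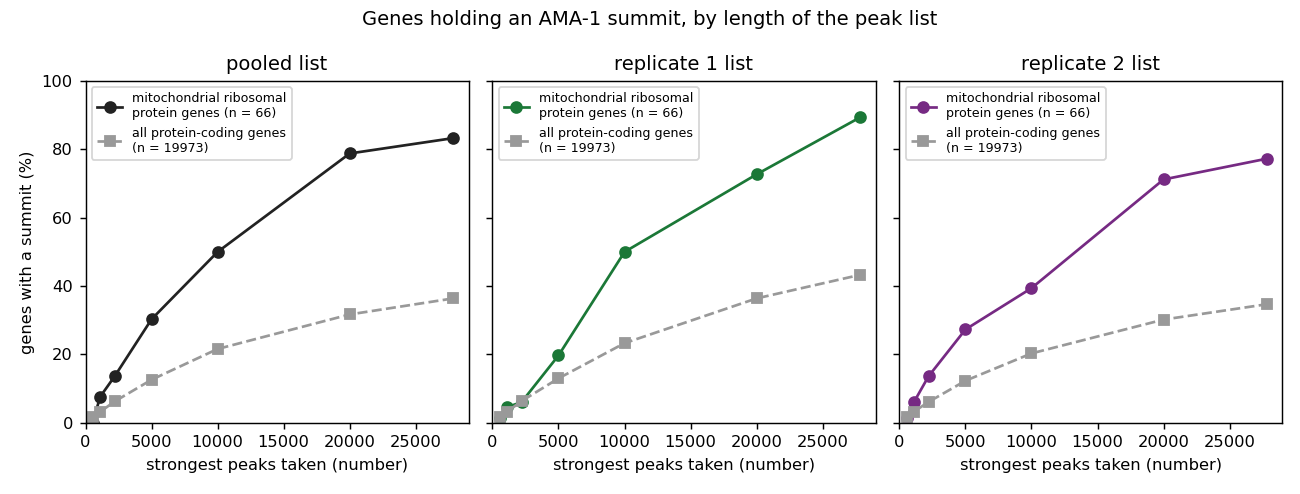
Share of genes (%) with a summit among the strongest peaks of the pooled list, replicate 1 and replicate 2, against the number of peaks taken. Circles with solid lines stand for the 66 mitochondrial ribosomal protein genes and grey squares with dashed lines for all 19973 protein-coding genes; in the pooled list the members' line reaches 83.3% and that of all genes 36.4% at 27847 peaks.

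The members are shorter than most genes and lie on the autosomes. The gap to other genes in the pooled list was as wide among genes of like length, and nearly as wide among autosomal genes. Their length ran from 402 to 10084 bp with a median of 1126.5 bp, against 2027 bp for all genes. Within the members' own length quartiles (789.75 to 2041 bp), 27 of 32 members had a pooled summit (84.4%), against 29.7% of all genes of that length, and 2 of 32 had an optimal summit (6.25%, against 2.53%). Of the 26 members up to 1000 bp, 25 had a pooled summit (96.2%, against 26.2%) and 4 had an optimal summit (15.4%, against 2.76%). No member lies on X, which holds 13.7% of all genes. Chromosome III carries 20 members (30.3%, against 13.2% of all genes) and chromosome V carries 10 (15.2%, against 25.0%). Restricted to autosomes, the background was 37.9% for the pooled list and 3.33% for the optimal list.

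The 5 members of the optimal list were mrpl-32, mrps-7, mrps-21, mrps-6 and mrpl-53. Their sequence around the pooled summit is printed for the 4 whose sequence is given, because it shows where the polymerase summit fell relative to each gene. The letters are ce11, from the RefSeq copy of the WBcel235 genome, read 5' to 3' on the gene's own strand. Capitals mark 11 bases centred on the summit.
mrpl-32, chrIII:8449347-8449465, plus strand: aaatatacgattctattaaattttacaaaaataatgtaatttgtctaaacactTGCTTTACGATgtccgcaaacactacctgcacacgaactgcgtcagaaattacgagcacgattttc
mrps-7, chrIV:14767838-14767958, minus strand: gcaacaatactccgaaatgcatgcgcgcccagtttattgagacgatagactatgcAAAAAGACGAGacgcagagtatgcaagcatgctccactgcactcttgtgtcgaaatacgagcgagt
mrps-21, chrIV:4659381-4659501, minus strand: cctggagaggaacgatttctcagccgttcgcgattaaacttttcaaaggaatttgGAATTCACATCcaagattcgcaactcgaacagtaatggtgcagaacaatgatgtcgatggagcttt
mrpl-53, chrII:9598015-9598108, plus strand: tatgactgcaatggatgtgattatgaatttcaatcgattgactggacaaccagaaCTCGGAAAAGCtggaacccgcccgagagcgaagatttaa
The mrpl-32 window lies between genes and is 66.4% A or T. The mrps-7 window lies between 2 divergent genes (52.1% A or T), and those of mrps-21 (57.0%) and mrpl-53 (56.4%) lie in coding sequence.

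mrpl-32 (WBGene00016249, chrIII:8449757-8450519, plus strand) encodes a large-subunit protein of a family shared with bacteria. In yeast and mouse its relative is known to be trimmed by a protease of the inner membrane. Its pooled summit, at rank 781 with signal value 45.6, was the strongest of any member and lay 352 bp ahead of the annotated 5' end, in no other protein-coding window. In replicate 2 the strongest summit stood at rank 454, 327 bp ahead of the 5' end. In replicate 1 the strongest summit was 76 bp inside the gene at rank 6283, while the summit at the upstream position, 351 bp ahead, was at rank 22478. The upstream summit was therefore high in replicate 2 and near the foot of the list in replicate 1. The gene ahead on the same strand, rpn-3, encodes a proteasome lid subunit. It ends 410 bp before mrpl-32 and had its own best pooled summit at rank 1923. Windows stop at the 3' end, but the mrpl-32 pooled peak, chrIII:8449237-8449572, overlapped the 3' end of rpn-3. It therefore cannot be assigned to mrpl-32 alone.

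mrps-7 (WBGene00013324, chrIV:14766773-14767730, minus strand) encodes a small-subunit protein of a family shared with bacteria. It was the member whose replicates placed the summit most alike. The pooled summit lay 168 bp ahead of the 5' end at rank 819 with signal value 44.9. The replicate summits lay 169 bp and 167 bp ahead, at rank 4746 in replicate 1 and rank 852 in replicate 2. The position was the same within 2 bp, and the rank was higher in replicate 2. The summit also fell in the window of Y57G11C.3, which runs the other way from a start 470 bp off, so it cannot be assigned to either gene. The gene downstream, vti-1, begins 107 bp after mrps-7 and had a separate summit at pooled rank 1287.

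mrps-21 (WBGene00017924, chrIV:4659049-4659517, minus strand) encodes another small-subunit protein of a bacterial family. The pooled summit lay 76 bp inside the gene, in coding sequence, at rank 932 with signal value 42.9. Replicate 2 had its summit at 98 bp with rank 599. Replicate 1 had its summit 193 bp ahead of the gene with rank 3481, which is also inside the window of the gene ahead, F29B9.11. The replicates thus placed it on opposite sides of the annotated 5' end, 291 bp apart. F29B9.11 ends 113 bp before mrps-21 on the same strand and had a weaker best pooled summit, at rank 3809.

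mrps-6 (WBGene00020037, chrI:4173758-4174774, minus strand) encodes a small-subunit protein and was the member nearest to the top 1103 peaks in both replicates, at rank 876 in replicate 1 and rank 1205 in replicate 2. The pooled summit lay 325 bp ahead of the 5' end at rank 939 with signal value 42.8. It was shared with rpn-8, which encodes another subunit of the proteasome lid and starts 544 bp away in the other direction. In replicate 2 the strongest summit was 322 bp ahead. In replicate 1 it was 164 bp inside mrps-6, while summits 79 bp and 321 bp ahead were at ranks 2777 and 13594. The strongest summit of replicate 1 was therefore inside the gene and that of replicate 2 between the divergent genes, where replicate 1 had weaker ones.

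mrpl-53 (WBGene00008459, chrII:9597622-9598201, plus strand) encodes a large-subunit protein with no counterpart in bacteria. The pooled summit lay 453 bp inside the gene, in coding sequence, at rank 967 with signal value 42.3. Replicate 1 had its strongest summit at 272 bp with rank 272, the best rank of any member in any list. It had another at 477 bp with rank 803, nearer the pooled position. Replicate 2 had its summit at 433 bp with rank 3689. This was the reverse of mrpl-32, with replicate 1 the stronger. Ahead of mrpl-53 lies a run of 4 close genes on the same strand, whose best pooled rank was 7751, and the nearest, E02H1.6, ends 93 bp before it and had only a summit at rank 27855. The gene nhr-19, on the other strand, overlaps the 3' end of mrpl-53, and its 3' end lies past the summit, 558 bp from the start of mrpl-53.

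**Figure D2:**
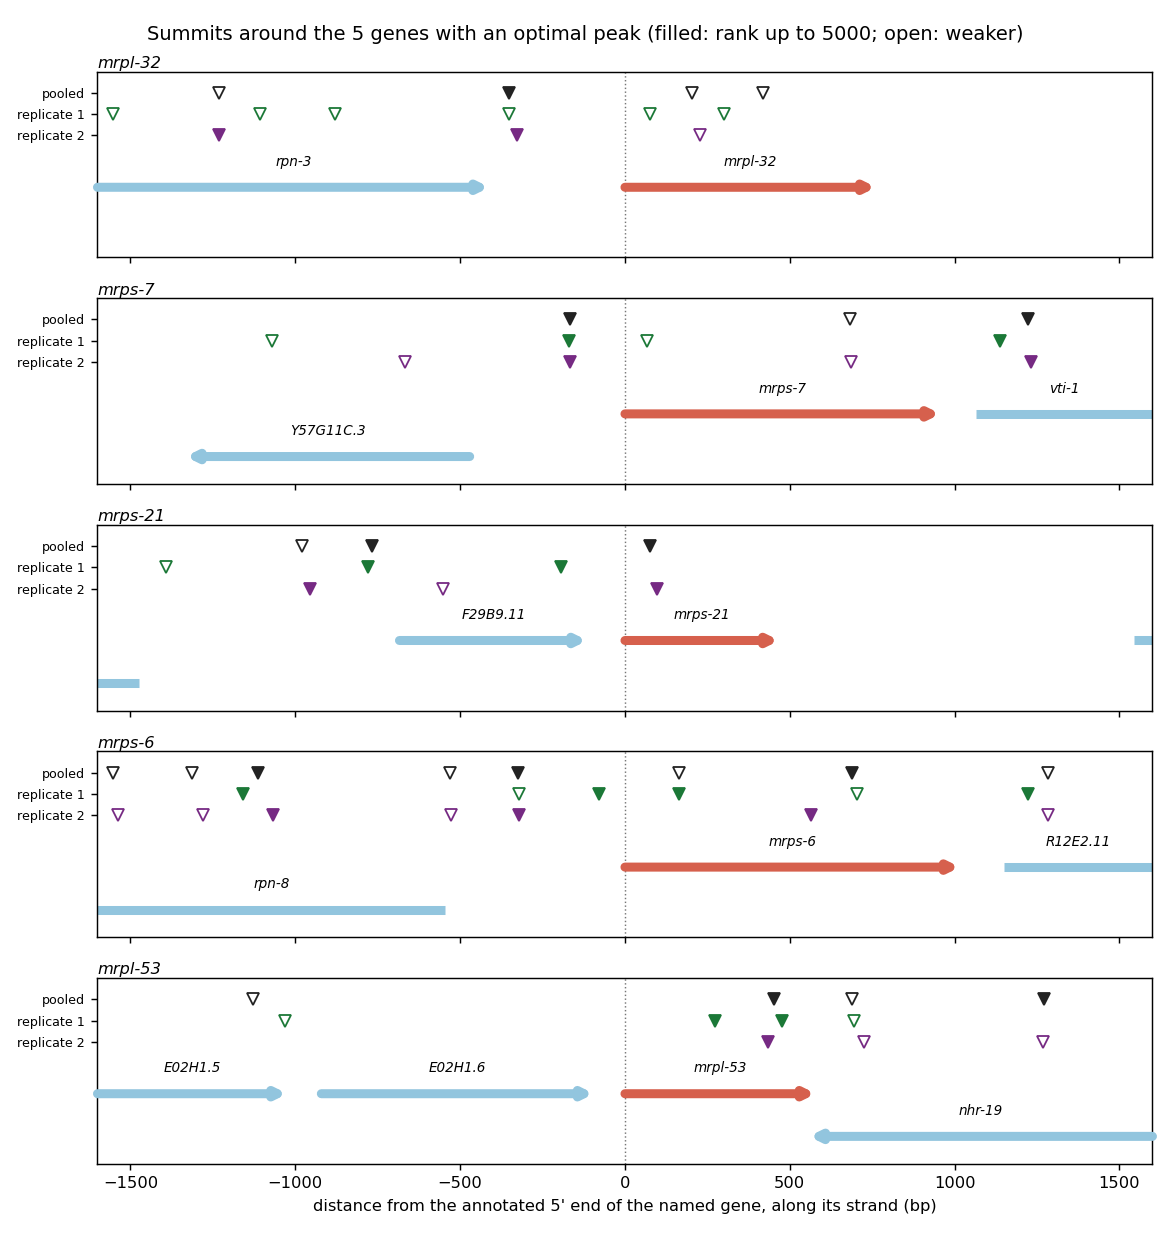
Summits (triangles) in the pooled, replicate 1 and replicate 2 lists along the 5 loci, by distance in bp from the annotated 5' end of the named gene, drawn left to right along its strand. Filled triangles have rank up to 5000 and open ones are weaker; the member is red, its protein-coding neighbours are blue, genes of the other strand are on the lower line, arrowheads mark 3' ends inside the frame, and only at mrps-7 and mrpl-53 do the strongest summits of the replicates lie within 200 bp of each other.

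No member was among the 1103 strongest peaks in both replicates, against 1.62% of all genes. In either replicate there were 7 (10.6%, against 4.87%). Replicate 1 had 3 of them, mrpl-53, mrps-6 and mrpl-41, against 3.20% of all genes. Replicate 2 had 4, mrpl-32, mrps-21, mrpl-11 and mrps-7, against 3.28%. None of the 7 was common to both. The interval of that 0 of 66 (0.0 to 5.5%) holds the background of 1.62%, so the lack of overlap does not set members apart from all genes.

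The optimal list ended at rank 1103, and the next members came well after it. The nearest inside was mrpl-53 at rank 967 and the nearest outside was mrpl-13 at rank 1721 with signal value 34.0. mrpl-13, of the large subunit, had its summit 40 bp inside the gene and lies 104 bp behind F13G3.7. mrpl-41, a mitochondria-specific protein of the large subunit, stood at rank 1927, with the pooled summit 19 bp ahead of the gene. Its replicate summits lay at 47 bp inside (rank 1067) and 420 bp ahead (rank 2635), and the second of these was also the strongest replicate 2 summit of misc-1, the close gene ahead of it. mrpl-11, a protein of the stalk of the large subunit, stood at rank 1964, with its summit 42 bp ahead. Its ranks were 16493 in replicate 1 and 844 in replicate 2, among the widest gaps of any member. mrpl-40, a mitochondria-specific large-subunit protein, stood at rank 2116 with its summit in the window it shares with the divergent gene F54C4.4, 177 bp away.

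Over both subunits the pooled counts were alike and the strong peaks were few. Of 41 large-subunit genes 35 had a pooled summit (85.4%), with median rank 7267. Of 25 small-subunit genes 21 had one (84.0%), with median rank 7627. Among the 2206 strongest pooled peaks were 6 large-subunit and 3 small-subunit genes, and in the optimal list 2 and 3. Symbols numbered up to 36 in the large subunit and up to 21 in the small one name families shared with bacteria. Of these 37 genes 32 had a pooled summit (86.5%, median rank 6497.5). Of the 29 with higher numbers, whose proteins were added in mitochondria, 24 had one (82.8%, median rank 9129.5). No test of these differences was made.

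After the 9 members named above, the large-subunit genes with pooled summits ran in this order. mrpl-48, mrpl-49, mrpl-45, mrpl-50, mrpl-28 and mrpl-22 lay at ranks 2809 to 3683. mrpl-24, mrpl-34, mrpl-38, mrpl-20, mrpl-18, mrpl-1, mrpl-51, mrpl-9 and mrpl-36 lay at ranks 5311 to 9380. mrpl-17, mrpl-23, mrpl-35, mrpl-19, mrpl-16, mrpl-15, mrpl-42, mrpl-39, mrpl-55, mrpl-12 and mrpl-47 lay at ranks 10832 to 19891. The weakest 3 were mrpl-21 at 20107, mrpl-54 at 22596 and mrpl-44 at 25323. mrpl-44, whose human relative has the fold of an RNA-cutting enzyme, had its only pooled summit 4903 bp from the 5' end, in the 3' UTR.

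The remaining small-subunit genes began with mrps-17 at rank 2791, whose summit 146 bp ahead is shared with the divergent gene txdc-9. mrps-23, mrps-5, mrps-16, mrps-9, mrps-12, mrps-24, mrps-10 and mrps-28 lay at ranks 3693 to 7735. mrps-5 is known from worms in which its knockdown lengthens life. It stood at rank 4281 in the pooled list, 3293 in replicate 1 and 2616 in replicate 2. mrps-12, a protein of the decoding centre, had rank 5898 in the pooled list and 3797 in replicate 1, and no summit in replicate 2. mrps-35, mrps-15, mrps-31, mrps-33, mrps-26, mrps-2, mrps-14 and mrps-25 lay at ranks 10524 to 18689, and mrps-27 was last of all at rank 29663. Of the 30000 pooled peaks 5554 shared the highest −log10 (q-value) of 4.05. Such a peak lay at 22 members, against 13.8% of all genes.

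**Figure D3:**
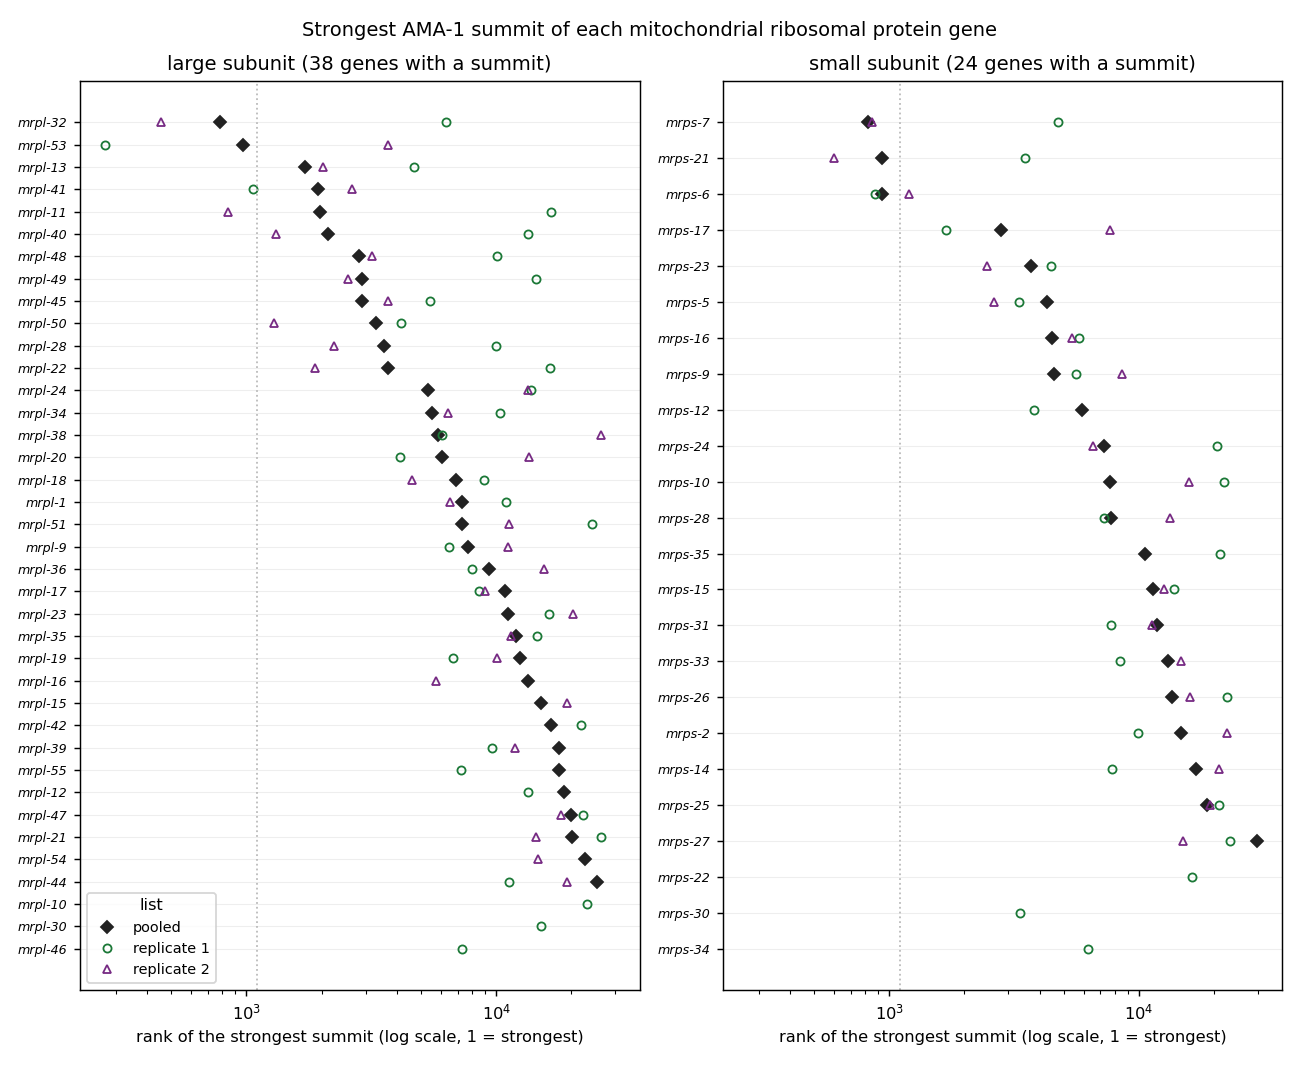
Rank of the strongest summit of each mitochondrial ribosomal protein gene in the pooled list (black diamonds), replicate 1 (green circles) and replicate 2 (purple triangles), on a log axis with rank 1 the strongest. The dotted line marks rank 1103, the end of the optimal list. The 2 large-subunit and 3 small-subunit genes whose pooled diamond lies left of it lead each panel. The last 3 names of each panel have a replicate 1 summit only.

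The pooled list gave no summit to 10 members. Of these, 6 had a summit in replicate 1 only, namely mrps-30 (rank 3353), mrps-34 (6241), mrpl-46 (7311), mrpl-30 (15141), mrps-22 (16236) and mrpl-10 (22986). mrps-30 and mrps-34 thus stood higher in replicate 1 than many members that had pooled summits. The other 4, mrpl-2, mrpl-4, mrpl-37 and mrps-11, had no summit in any list. mrpl-10, with mrpl-11 and mrpl-12, belongs to the stalk of the large subunit, so the members of this stalk ran from a pooled rank of 1964 (mrpl-11) through 18603 (mrpl-12) to none. Absence from a list says only that no peak was called in that window at the unknown depth of these libraries.

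The replicates differed in which members they ranked high. Over the 48 members with a summit in both, 29 ranked higher in replicate 2 and 19 in replicate 1. Of all genes with a summit in both deposited lists, 50.0% ranked higher in replicate 1. The weaker rank was a median of 1.81 times the stronger for members and 1.96 times for all such genes. The ranks of 28 members lay within 2 times of each other. The strongest summits lay within 200 bp of each other at 21 of 48 members (43.8%, against 33.0% of all genes with a summit in both). The median distance over the 48 was 243.5 bp, from 2 bp at mrps-7 to 4589 bp at mrpl-44. Summits in replicate 1 alone were found at 11 members and in replicate 2 alone at 3. Over all genes the deposited list of replicate 1 also reached more genes, 8657 against 7117 in replicate 2, with 5773 in both. The 11 and 3 therefore follow the direction seen over all genes.

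**Figure D4:**
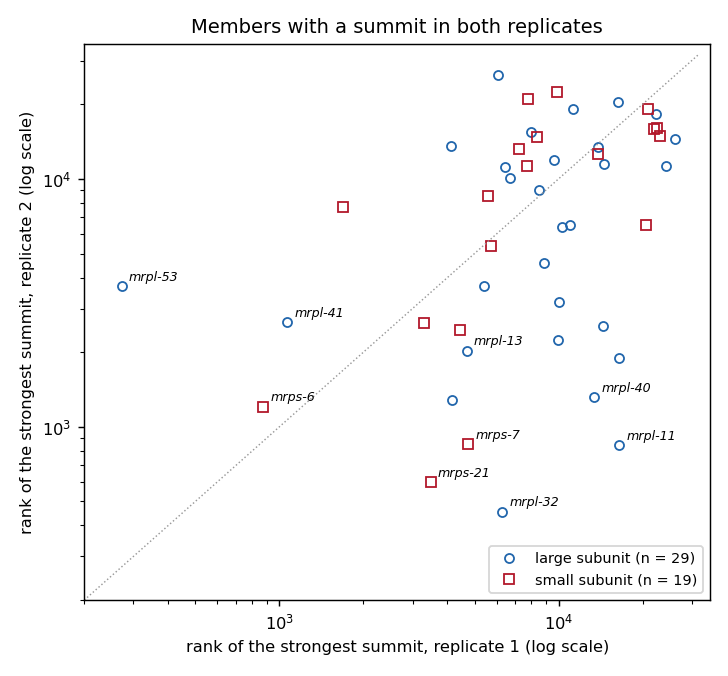
Rank of the strongest summit in replicate 2 against that in replicate 1 for the 48 members with a summit in both, on log axes with rank 1 the strongest; circles are large-subunit and squares small-subunit genes. Points below the dotted diagonal ranked higher in replicate 2 (29 members) and points above it higher in replicate 1 (19); the named genes are among the 2206 strongest pooled peaks.

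The strongest pooled summit of the members lay nearer the annotated 5' end than that of all genes in the pooled list. Its median position was 6.5 bp ahead of the annotated 5' end (−6.5 bp), against 240.5 bp inside the gene for all genes with a pooled summit. It lay ahead of the 5' end at 28 of 56 members (50.0%, against 30.8%) and within 250 bp of it on either side at 29 (51.8%, against 37.8%). The replicates differed here. In replicate 1 the strongest summit lay ahead of the 5' end at 18 of 59 members (30.5%, interval 20.3 to 43.1, against 24.1% of all genes with a replicate 1 summit), and in replicate 2 at 24 of 51 (47.1%, interval 34.1 to 60.5, against 30.8%). The interval of replicate 1 holds its background. Of the other 28, 18 lay in coding sequence, 5 in introns, 3 in the 5' UTR and 2 in the 3' UTR. The range was wide, from −489 bp at mrps-10 to 4903 bp at mrpl-44. The member windows held 106 pooled summits, with 1 summit at 25 members and more at 31. The most was 8, at mrpl-45, one of the longer members at 5620 bp. An annotated 5' end in the worm is often the trans-splice site, so distance from it is not distance from the start of transcription. Members are also shorter than most genes (median 1126.5 bp, against 2027 bp), so fewer positions inside the gene could hold a summit. The positions were not compared with those of genes of like length.

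**Figure D5:**
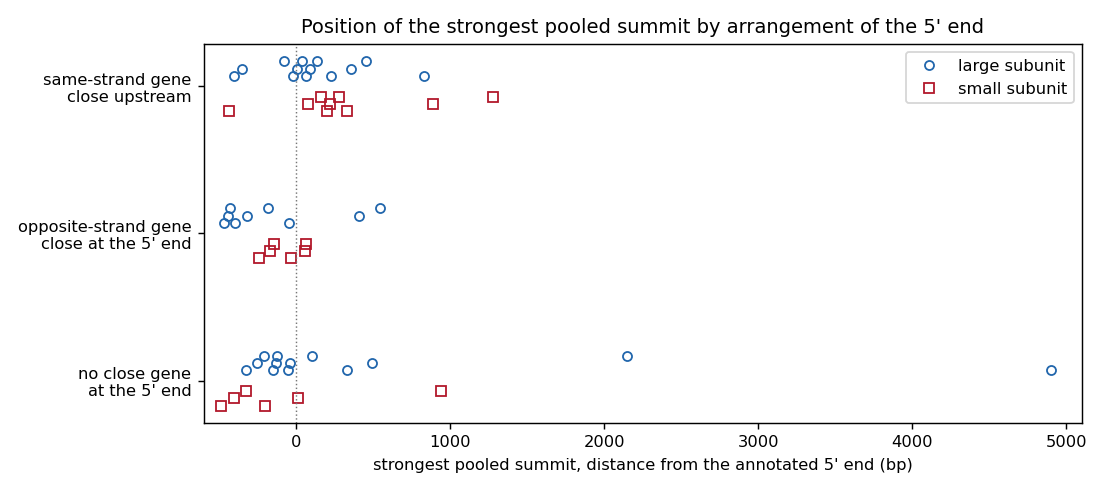
Position of the strongest pooled summit of the 56 members that have one, in bp from the annotated 5' end (dotted line, negative values ahead of it), in 3 rows by the nearest gene at that end. Circles are large-subunit and squares small-subunit genes; most points lie between −489 and 1000 bp, with mrps-27 (1277 bp), mrpl-22 (2148 bp) and mrpl-44 (4903 bp) beyond.

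Many members lie close behind or ahead of another gene on the same strand, the arrangement of operon genes. A protein-coding gene on the same strand ended within 500 bp ahead of 28 of 66 members (42.4%), against 20.9% of all genes. One began within 500 bp after 29 (43.9%, against 20.6%), and 13 members had both (19.7%, against 5.90%). Many of the gaps were of similar length. The 26 gaps ahead of members without overlap ran from 25 to 460 bp, and 18 were 80 to 120 bp long (69.2%), against 26.1% of the 3589 such gaps of all genes. Their median, with 2 overlapping pairs counted, was 105 bp. Whether these genes share a transcript cannot be told from positions alone. Another 17 members had an opposite-strand gene close at the 5' end (25.8%, against 10.3%), and 21 had neither (31.8%, against 68.9%).

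The gaps ahead of 4 members are printed as examples of the letters in front of downstream genes, at members with and without a summit. They were picked after their letters and values were seen. They are whole gaps, on the gene's strand of ce11, and capitals mark TTTCAG, the common letters of a worm splice acceptor, where the gap ends with them.
mrpl-53 behind E02H1.6, chrII:9597529-9597621, plus strand: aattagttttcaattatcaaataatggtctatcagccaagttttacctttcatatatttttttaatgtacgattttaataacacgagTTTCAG
mrpl-4 behind mrps-2, chrV:8467160-8467264, plus strand: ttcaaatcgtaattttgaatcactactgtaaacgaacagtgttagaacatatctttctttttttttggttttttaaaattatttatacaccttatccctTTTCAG
mrps-11 behind W04D2.4, chrV:12494623-12494727, minus strand: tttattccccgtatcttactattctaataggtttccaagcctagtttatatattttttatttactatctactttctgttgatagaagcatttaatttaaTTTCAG
mrps-22 behind dap-3, chrII:10582513-10582617, plus strand: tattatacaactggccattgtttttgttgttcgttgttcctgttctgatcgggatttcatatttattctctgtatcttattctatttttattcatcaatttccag
All 4 gaps are rich in A and T (75.3%, 74.3%, 74.3% and 69.5%) and end in AG, and 3 end in TTTCAG. Of the 26 gaps without overlap 24 end in AG and 8 in TTTCAG, so the letters TTTCAG are over-represented in the examples. mrpl-53 held an optimal summit, whereas mrpl-4 and mrps-11 held no summit in any list and mrps-22 held one in replicate 1 only.

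Acceptor letters were common at the annotated 5' ends of members, with and without a close gene ahead. AG stood directly before the annotated 5' end of 52 of 66 members (78.8%), against 27.6% of all genes. Among members with a same-strand gene close ahead it was 24 of 28 (85.7%, against 32.9%), and among members with no close gene it was 15 of 21 (71.4%, against 26.1%). TTTCAG on the gene's strand ended within 10 bp of the annotated 5' end or of the start codon at 35 members (53.0%, against 20.2%). By arrangement it was 11 of 28 with a same-strand gene close ahead (39.3%, against 18.3%), 12 of 17 with an opposite-strand gene (70.6%, against 20.3%) and 12 of 21 with neither (57.1%, against 20.8%), so unlike AG it was least frequent behind a close gene. In the 250 bp ahead of the 5' end, on either strand, CCGCCC was found at 4 members (6.06%, against 6.94%) and TTTTTT at 62 (93.9%, against 77.5%). These are matches of letters and show no measured site.

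Pooled summits were found at most members whatever the arrangement of the 5' end, and optimal summits at few. A pooled summit was found at 22 of 28 members with a same-strand gene close ahead (78.6%, against 45.5% of all genes so arranged). It was found at 15 of 17 with a close opposite-strand gene (88.2%, against 51.6%) and at 19 of 21 with neither (90.5%, against 32.7%). Optimal summits lay at 3 of 28 (10.7%, against 4.54%), 1 of 17 (5.88%, against 3.90%) and 1 of 21 (4.76%, against 2.67%). Among the 2206 strongest pooled peaks were 5 of 28 (17.9%, against 8.33%), 2 of 17 (11.8%, against 8.34%) and 2 of 21 (9.52%, against 5.31%). The difference between these classes of members was not tested, and their intervals overlap.

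In these runs the strongest pooled summit lay at the gene ahead in some pairs and at the member in others. The gene ahead had the stronger pooled summit at 14 of 28 members (50.0%, against 30.0% of all genes with such a neighbour). At 4 of these 14 the member had no pooled summit. In 1 pair, mrpl-1 and emc-6, the strongest summit was the same. Pooled summits were more frequent at these members than at all such genes (78.6%, against 45.5%), so the shares of 50.0% and 30.0% do not compare like pairs. mrps-26 stood at rank 13505 and lies 81 bp behind prmt-5, an arginine methyltransferase gene with an optimal summit at rank 107. mrpl-54 stood at rank 22596 and lies behind clsp-1, with an optimal summit at rank 695. mrpl-23 stood at rank 11100 and lies 95 bp behind fars-1, which encodes a subunit of a phenylalanine tRNA synthetase and stood at rank 1781. mrpl-48 stood at rank 2809, 93 bp behind vps-37 at rank 1389. In replicate 1 mrpl-23 stood at rank 16326 and fars-1 had no summit. In the opposite direction, mrps-21, mrpl-53, mrpl-13 and mrpl-32 stood higher than the gene ahead in the pooled list and in replicate 2. So did mrpl-41, mrpl-50, mrps-5, mrps-9, mrpl-24, mrps-33 and mrpl-21 in the pooled list. mrps-5 and mrps-9 stood higher in both replicates too, as did mrpl-21, whose gene ahead, zhit-2, had no summit in any list. mrpl-41 stood higher in replicate 1, at rank 1067 against 3750 for misc-1. Among mrps-21, mrpl-53, mrpl-13 and mrpl-32 this held in replicate 1 for mrpl-53 and mrpl-13 only. There mrps-21 stood at rank 3481, against 1015 for F29B9.11, and mrpl-32 at rank 6283, against 1667 for rpn-3. The pooled peak credited to mrpl-32 also overlapped the 3' end of rpn-3, so its higher pooled rank does not separate the 2 genes.

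Of the 10 members without a pooled summit, 6 lie behind a close gene, beside 28 of all 66 members (42.4%). The difference was not tested. mrps-22 and the gene ahead of it, dap-3, which also encodes a protein of the small mitochondrial subunit, both lacked one, and so did mrpl-2 and F56B3.9. mrpl-4 lies 105 bp behind mrps-2, the only close pair of members on 1 strand. Of that pair mrps-2 stood at pooled rank 14718 and mrpl-4 had none. mrps-30 lies behind cdc-26 (rank 13219), mrps-11 behind W04D2.4 (23904) and mrpl-30 behind W04B5.5 (7380). W04B5.5 was much stronger in replicate 1, at rank 711, than in replicate 2, at rank 8594.

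Summits between members and other genes could often not be assigned to 1 gene. The strongest pooled summit of 23 of 56 members also fell in another protein-coding window (41.1%, against 21.5%), and so did the optimal summit of 2 of 5 (against 19.0%). mrpl-1 and mrps-24 are divergent genes of the large and the small subunit with starts 343 bp apart, and they share 1 summit at rank 7267. It lay 405 bp ahead of mrpl-1 and 61 bp inside mrps-24, and also in the window of emc-6. mrpl-49 shares its summit, at rank 2898, with rpl-28, a gene of the cytosolic ribosome. mrpl-50, with rank 3306 and its summit 6 bp inside the gene, is packed between cct-2, which ends 25 bp before it, and enol-1, the enolase gene, which begins 56 bp after it and had an optimal summit at rank 449.

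Genes of the cytosolic ribosome, set beside the mitochondrial ribosome, stood higher in the lists. Members had 5 optimal summits, 9 summits among the 2206 strongest pooled peaks and 56 pooled summits in all over 66 genes (7.58%, 13.6% and 84.8%), with median rank 7279. The 79 cytosolic ribosomal protein genes had 10, 25 and 75 (12.7%, 31.6% and 94.9%), with median rank 4263. The strongest of these were rpl-1 at rank 475 and rpl-15 at rank 518. A same-strand gene lay close ahead of 28 members (42.4%) and of 9 cytosolic ribosomal protein genes (11.4%). The difference between the families was not tested.

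Other genes of mitochondrial gene expression gave these counts, beside 37.3% of all genes with a pooled summit and 3.18% with an optimal one. Median gene length was 3437 bp for the translation partners, 6129 bp for the genome genes, 1231.5 bp for import and 2637 bp for chaperones and stress response. It was 1126.5 bp for members, and the counts were not adjusted for length. Of the translation partners (elongation factors, tRNA synthetases and the tRNA-processing genes hoe-1 and mttu-1, with 17 of 21 symbols matched), none had an optimal summit and 11 had a pooled summit (64.7%), led by the elongation factor genes tufm-1 at rank 1383 and tufm-2 at rank 1877. Of 5 genes that copy or transcribe the mitochondrial genome, 2 had a pooled summit, polg-1 at rank 5999 and mtss-1 at rank 6431. Of 8 import genes 5 had one, and timm-23, a channel subunit of the inner membrane, was in the optimal list at rank 679, with tomm-20 next at rank 1585. Of 9 chaperone and stress-response genes 8 had a pooled summit and 3 an optimal one. These were atfs-1, the transcription factor of the mitochondrial unfolded protein response, at rank 214, clpp-1, a matrix protease, at rank 731, and hsp-6, the mitochondrial Hsp70, at rank 840. Of 5 mitochondrial ribosomal genes that the naming rule missed, mrps-18A stood at rank 2623, mrps-18.C at 10318, mrps-18B at 12100 and mrps-18C at 20771, and dap-3 had no summit.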

How the data were processed

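ChIP-seq peak lists of 2 biological replicates, numbered by the labels, were used as deposited on build ce11; the lists on the other of the 2 builds were not placed on genes. Which aligner and peak caller made them is not given in the sources used here, and the control library was not used here. Per the READMEs deposited with the samples, peaks were called for each replicate and on pooled reads, and the optimal list came from comparing those lists. The deposited signal value is a peak score on a scale of its own in each list. The q-values in the deposited lists are given as −log10. The deposited summit offset was added to the peak start. Depth is unknown.

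Summits were placed on Ensembl release 115 genes (WBcel235), in a window from 500 bp upstream through the gene, and counted for every gene they fell in. A close neighbour is at most 500 bp away. Shares have 95% Wilson intervals, and all background shares are over the same annotation. The members, gene lists and motifs were chosen with earlier results of these data known. Named were the members in the optimal list, those among 2206 pooled peaks, those without a pooled summit, the strongest and weakest of each subunit, neighbours sharing a summit and the 2 strongest genes of each list; mrps-5, mrps-12, the stalk and the neighbours of runs were picked after their values were seen. Added after the data were seen were the length and autosome backgrounds, lists of 5000 and 20000 peaks, the bacterial division, the AG count, the gap ends, upstream shares per replicate and the 5 genes outside the naming rule. The placement was checked on planted summits. Alternatives were shorter and longer lists, each replicate alone, other upstream windows, gene bodies, peak overlap, genes that overlap no other, and other gaps and biotypes. Software was Python 3.11.15, numpy 2.4.6, pandas 2.3.3, scipy 1.17.1 and matplotlib 3.10.9.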

Additional observations from a re-analysis of the deposited data

How the results depend on the processing

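The counts of members moved mostly with the length of the list and the window. Of 5 members with an optimal summit, the strongest 551 peaks left 0, the strongest 2206 gave 9, and gene bodies alone or 100 bp upstream gave 2 each. With the strongest 1103 peaks of a single replicate the count was 3 to 4. Of 3 members whose optimal summit fell in no other window, 551 peaks left 0, 2206 peaks gave 6, and overlap of the peak with the window gave 1. The pooled count of 56 was 33 with the strongest 10000 peaks, 20 with the strongest 5000 (a setting added after the data were seen) and 51 to 59 with 1 replicate. The count of 48 in both replicates was 17 with the strongest 10000 peaks of each. Of 3 members with both a close gene ahead and an optimal summit, 2206 peaks gave 5. The 28 summits ahead of the 5' end were 7 with 100 bp upstream, since fewer positions then count, and 18 to 24 with 1 replicate (18 of 59 in replicate 1, a share whose interval holds the background, and 24 of 51 in replicate 2). In 24 alternatives that kept both replicates the count stayed within 1.5 times of that reported. No paired analysis was possible because there is 1 group. Depth limits every absence, and with 2 replicates no spread beyond their pair can be given.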
